A study of Mus musculus with 32 samples.

Results

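Glutathione reductase (Gsr) returns oxidised glutathione to its reduced form, and the lung relies on that form as an antioxidant when it first meets air. The difference examined here is the change of Gsr-KO lungs between embryonic day 19 (E19) and postnatal day 5 (P5) minus the same change of Gsr-WT lungs. The 14 arrays of 4 groups were chosen by their titles, out of 32 arrays in the series. There were 3 arrays of KO lungs at P5, 4 of KO lungs at E19, 3 of WT lungs at P5 and 4 of WT lungs at E19. All mice were C3H/HeN, the labels give no allele or construct for the knockout, and the P5 pups had breathed room air with their dams since birth. Each array held total RNA from a piece of 1 mouse's lung, labelled with biotin and read on the Affymetrix Mouse 430_2 array. The labels give neither litter nor sex, so p-values measure the spread between individual mice, some of which may be littermates.

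Late in gestation the lung stops branching, thins its distal walls and begins to make surfactant. Flat alveolar type 1 cells then form the gas exchange surface, cuboidal type 2 cells secrete surfactant, and a specialised capillary cell, the aerocyte, lies against the type 1 cell. At birth air replaces fluid, oxygen rises, and the hypoxia response that was active in the womb is shut down.

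The targeted gene was checked first. Gsr signal was 158.3, 160.7 and 149.5 in KO P5 lungs and 216.9, 149.9, 161 and 146.7 in KO E19 lungs. It was 509.5, 498.4 and 889.8 in WT P5 lungs and 690.5, 802.7, 559.9 and 755.7 in WT E19 lungs. No KO array reached any WT array at either age, and the difference of the birth changes was 0.10 ± 0.24 (log2 ± SE), with a limma adjusted p of 0.886. Saraf, a brake on store-operated calcium entry that lies on chromosome 8 as Gsr does, was higher in KO lungs by 1.12 at P5 and 1.17 at E19, with a difference of -0.05 ± 0.21. For both genes the gap between genotypes was present at both ages.

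Some arrays stood apart from their labels. KO P5 replicate 1 correlated best with KO E19 replicate 2 (r = 0.976, against 0.961 with the closer of the other KO P5 arrays). Its mean level of hypoxia-inducible factor (HIF) targets, each centred on its mean over the series, was 0.66 on a log2 scale. That level was -0.28 and -0.55 in the other KO P5 arrays and 0.45 to 1.12 in the KO E19 arrays. In KO E19 replicate 1 the log2 ratio of signal at the end and the start of the actin and GAPDH control transcripts was 4.37, and on the other 13 arrays it ran from -0.06 to 0.70. Transcripts of liver plasma proteins were low in all KO lungs (level at most 0.58) and intermediate in WT P5 lungs (1.30 to 3.29). They were high in WT E19 replicates 2 to 4 (4.47 to 5.78) and low in WT E19 replicate 1 (-0.70). The 18S ribosomal RNA control read 229 to 1867 on KO P5 arrays and 16420 to 19030 on WT P5 arrays. At E19 it read 83.62, 1431, 20350 and 597.4 on KO replicates 1 to 4, and 12050 to 20580 on WT arrays. It was thus lower on KO than on WT arrays apart from KO E19 replicate 3, and its bearing on the differences was not tested. Calls and list medians of the difference that move most without KO P5 replicate 1 or WT E19 replicate 1 are also given without them, and whether handling, dissection or age labels account for the arrays was not tested. Xist was 8406 in WT P5 replicate 2 and 179.3 to 779 in the other P5 lungs. The Y-linked Eif2s3y was 256 in that lung and 1761 to 2188 in the others. At E19 Eif2s3y was 3262, 1753, 2.908 and 44.96 in KO lungs, and 0.8459, 1928, 31.01 and 2537 in WT lungs. By these genes all KO P5 lungs read as male and the other groups as mixed, and the part of sex was not tested.

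Across 13345 genes, 25 were called for the difference of birth changes, which is 0.187% of the genes tested: 18 (0.135%) with a lower and 7 (0.0525%) with a higher change in KO than in WT. Called means a limma adjusted p under 0.05, where the fit shares the spread of all 32 arrays. Those outside the 4 groups are P5 lungs after hyperoxia and adult lungs after air or hyperoxia. The shared spread thus also reflects other ages and exposures. At an unadjusted p under 0.05 there were 1554 genes, and the median difference over all genes was 0.06. In a fit of the 14 arrays alone 1 gene, Rtkn2, was called, and 691 had an unadjusted p under 0.05. Without KO P5 replicate 1, 17 genes were called, 12 of them among the 25. The 13 others kept 0.80 to 1.02 times their difference there, with adjusted p from 0.056 to 0.13. Without WT P5 replicate 3 there were 12 calls, all among the 25. Without KO E19 replicate 1 there were 29, of which 22 were among the 25. Without WT E19 replicate 1, 330 genes were called, including all 25, with 250 higher and 80 lower. The majority of lower differences among the calls thus turned to a majority of higher ones there. The 4 simpler contrasts share arrays with each other and with the difference, and are given side by side. Between KO and WT at E19, 2033 genes (15.2%) were called, 928 (6.95%) higher and 1105 (8.28%) lower in KO. That split depended on scaling: it was 1254 higher and 832 lower with quantile normalization, and 2491 higher and 541 lower with centring on array medians, which moves the median E19 gap of all genes to 0.23, against -0.05. In P5 air 5 genes (0.0375%) were called, 1 (0.00749%) higher and 4 (0.03%) lower in KO. Across birth 461 genes (3.45%) were called in KO lungs, 295 (2.21%) higher and 166 (1.24%) lower at P5. With centring on array medians these were 62 higher and 201 lower, and with quantile normalization 158 and 146. In WT lungs 1946 genes (14.6%) were called, 1115 (8.36%) higher and 831 (6.23%) lower at P5. The median SE was 0.31 for the difference and 0.21 for the E19 gap, so a difference of given size is harder to call.

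Most of the 25 genes shared a shape. All 25 had KO E19 arrays that did not overlap the WT E19 arrays, a pattern that 10.1% of all tested genes had, and all were called between genotypes at E19. None was called in P5 air, and 3 of 25 had non-overlapping P5 groups, against 17.8% of all genes. Between P5 and E19, KO lungs did not overlap for 3 of 25 (6.87% of all genes), and WT lungs did not overlap for 24 of 25 (29.5% of all genes). The 18 genes with a lower difference had a median change across birth of -0.08 in KO and 1.47 in WT, with a KO minus WT gap of -0.03 at P5 and 1.45 at E19. The 7 genes with a higher difference had medians of 0.09 in KO and -1.57 in WT, with gaps of 0.21 at P5 and -1.49 at E19. The genes were selected by this difference, so the breakdown describes them and is not a separate test. KO lungs at E19 did not overlap WT lungs at P5 for 4 of the 25 (22.9% of all genes): Bnipl, Cym, Igfbp7 and Dpt. The value of KO E19 minus WT P5 ran from -1.39 to 0.85, and its 95% interval held 0 for 15 of 25, which does not show that the groups are equal.

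**Figure D1:**
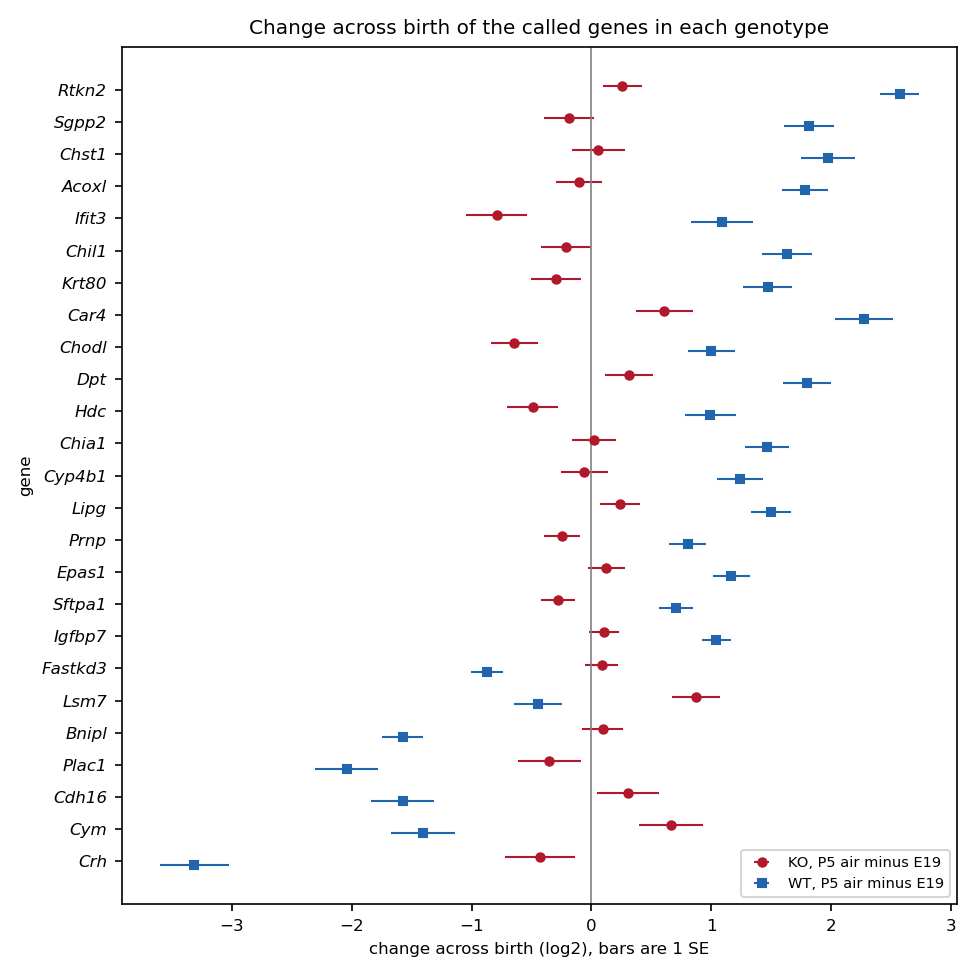
Change across birth (P5 air minus E19, log2, horizontal axis) of the 25 called genes, circles for KO lungs and squares for WT lungs, with bars of 1 SE. The KO changes lie between -0.79 and 0.87, while the WT changes of the 18 genes with a lower difference are all positive and those of the 7 others all negative.

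Rtkn2, a marker of alveolar type 1 cells, had the smallest p. Its signal was 2683, 3252 and 3203 in KO P5 lungs, 1867, 2927, 2194 and 3436 in KO E19 lungs, 2370, 2287 and 2827 in WT P5 lungs, and 405.6, 465.4, 400.9 and 323.4 in WT E19 lungs. The 4 WT E19 lungs stood alone at the low end, and the other 3 groups overlapped. The change across birth was 0.26 ± 0.16 in KO lungs and 2.57 ± 0.16 in WT lungs, and the difference was -2.31 ± 0.23 (adjusted p = 1.66e-06). Rtkn2 was called under all 28 alternatives tried, and WT E19 replicate 1, in which liver transcripts were low, had the same low signal as the other WT E19 lungs. Of the 22 type 1 genes measured, Rtkn2 was the only one called for the difference (0.187% of all genes were). Ager, a receptor abundant on type 1 cells, and Hopx, a type 1 transcription cofactor, had differences of -0.15 ± 0.20 and 0.05 ± 0.17. The list's median difference was -0.16, with 14 of 22 negative. At an unadjusted limma p under 0.05, 5 members were lower, Rtkn2 included, and none was higher. Of all 13345 genes, 1554 had such a p in either direction. Col4a3 (-1.67 ± 0.46) and Spock2 (-1.10 ± 0.37) were among these members without being called.

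**Figure D2:**
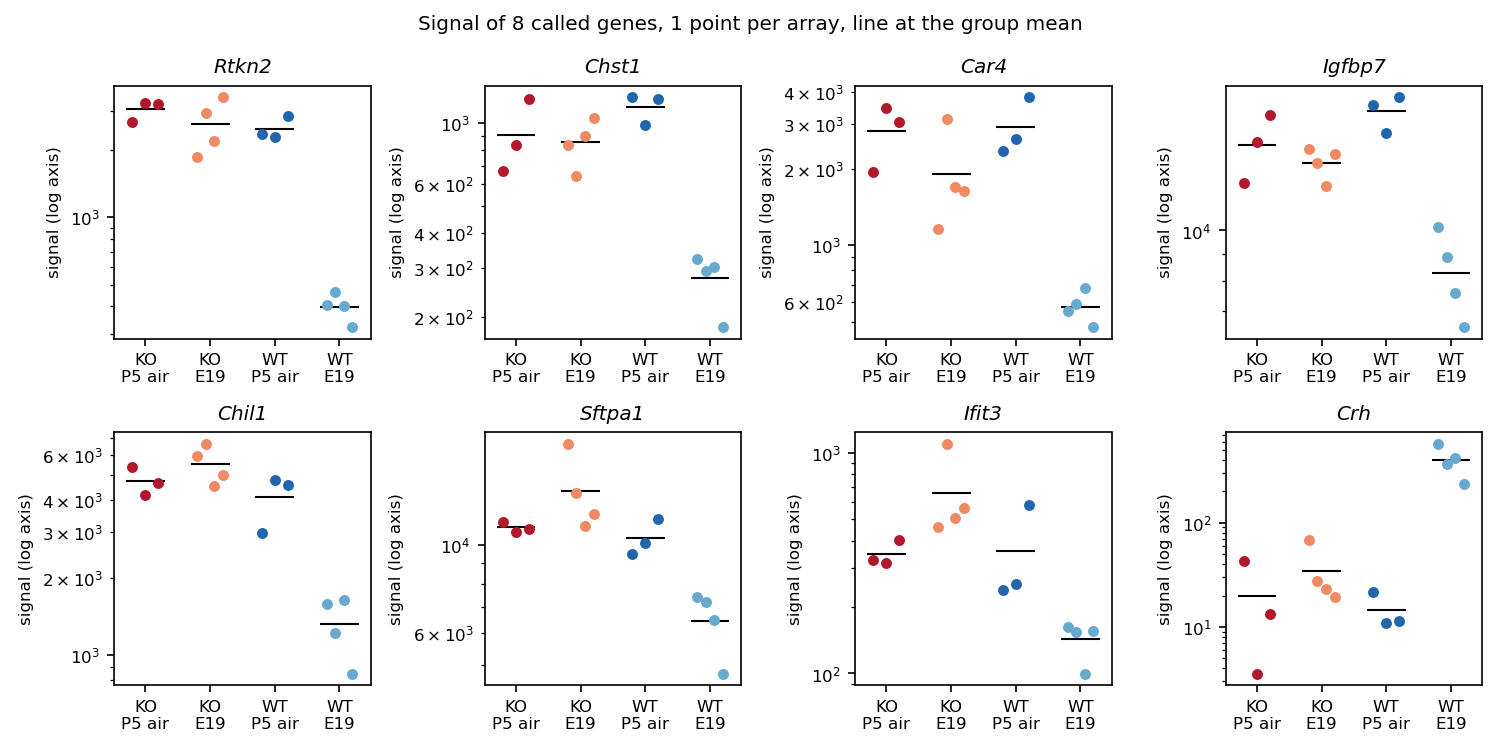
Signal (log axis) of 8 called genes on each of the 14 arrays, from left to right KO P5 air, KO E19, WT P5 air and WT E19, with a line at the group mean. In 7 panels the WT E19 arrays are the low group and in the Crh panel they are the high group, while KO E19 arrays do not overlap them in any panel.

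Of 14 aerocyte genes 4 were called lower (0.135% of all genes), with a list median of -0.56 against 0.06 over all genes. Of the members not called, Ednrb had a difference of -0.28 ± 0.30 (adjusted p = 0.728) and a WT change of -0.09. The differences of Apln and Fibin were positive, 0.13 and 0.43. In all, 12 of the 14 were negative, while 7389 of all 13345 genes were positive. Chst1 encodes a sulfotransferase. It had signals of 669.8, 829.4 and 1219 in KO P5 lungs, 832.5, 644.5, 897 and 1045 in KO E19 lungs, 1234, 981.1 and 1215 in WT P5 lungs, and 323, 293.2, 301.7 and 183.7 in WT E19 lungs. Again only the WT E19 lungs stood apart. Its difference was -1.92 ± 0.32 (adjusted p = 0.00324) and it was called in every fit with 1 array left out.

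Car4, a membrane carbonic anhydrase of the lung capillary that is also on the macrophage list, had signals of 1936, 3452 and 3056 in KO P5 lungs, 1161, 3138, 1696 and 1629 in KO E19 lungs, 2349, 2611 and 3803 in WT P5 lungs, and 551, 586.9, 682.1 and 478.7 in WT E19 lungs. KO E19 lungs lay between the WT ages, with 1 lung as high as the P5 lungs. The KO change was 0.61 ± 0.24, the WT change 2.27 ± 0.24 and the difference -1.66 ± 0.34 (adjusted p = 0.0299), which was not called without KO P5 replicate 1 (adjusted p = 0.10). Igfbp7, a secreted protein of vessel walls, averaged 14590 ± 2149 in KO P5 (SD, n = 3), 13490 ± 941 in KO E19 (n = 4), 16910 ± 1390 in WT P5 (n = 3) and 8289 ± 1571 in WT E19 lungs (n = 4). Its KO E19 lungs sat between WT ages without reaching WT P5. The difference was -0.94 ± 0.17 (adjusted p = 0.0122), lost without KO P5 replicate 1 (adjusted p = 0.058). Cyp4b1, a P450 enzyme abundant in lung, had a difference of -1.30 ± 0.27, called with adjusted p = 0.0386 and lost in 13 of 28 alternatives.

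Of 26 general endothelial genes none was called for the difference (0.187% of all genes were), and their median was -0.36, or -0.22 without KO P5 replicate 1. Cdh5, the junction cadherin of endothelium, had -0.55 ± 0.31 (adjusted p = 0.485), and Pecam1 had 0.95 ± 0.89 with KO E19 signals from 233.4 to 5023, the lowest in replicate 1. Epas1, which encodes HIF-2 alpha, and Lipg, the endothelial lipase, were called outside the lists and were picked after their values were seen: their differences were -1.04 ± 0.22 and -1.26 ± 0.23. The Epas1 call was lost in 12 of 28 alternatives, and without KO P5 replicate 1 neither was called (adjusted p = 0.12 and 0.056). In whole lung, fewer cells of a type and less RNA per cell cannot be told apart, and this holds for each gene above.

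**Figure D3:**
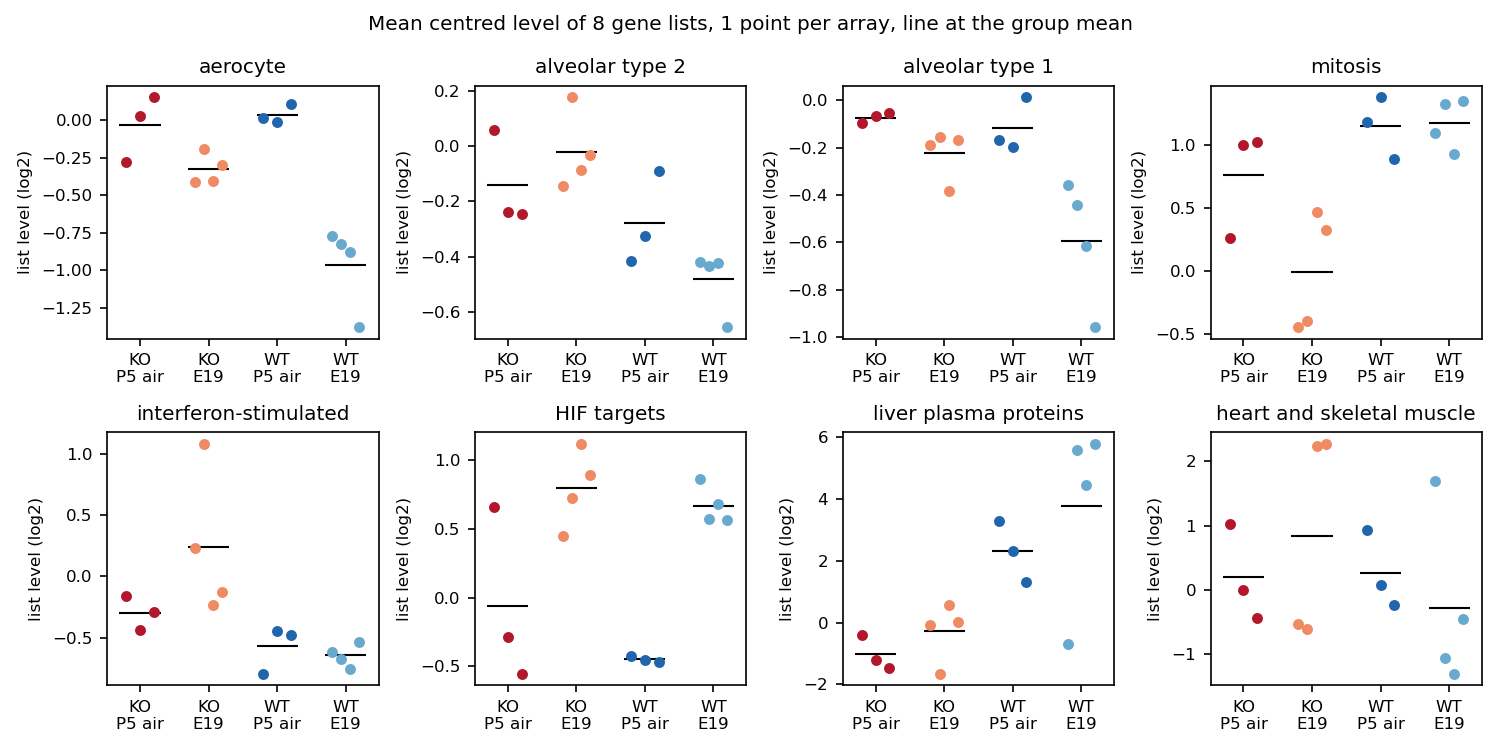
Level of 8 gene lists (mean log2 signal of the list, centred on each gene's mean over the series) on each array, from left to right KO P5 air, KO E19, WT P5 air and WT E19, with a line at the group mean. The aerocyte level lies between -0.41 and -0.19 in KO E19 arrays and between -1.38 and -0.78 in WT E19 arrays, the mitosis level of KO E19 arrays lies below that of every WT array, and the HIF level separates the ages in both genotypes apart from KO P5 replicate 1.

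Of the type 2 genes, 2 of 21 were called, both lower (0.135% of all genes), and the list median was -0.33. Chil1, a chitinase-like protein made by type 2 cells, averaged 4758 ± 608 in KO P5 (SD, n = 3), 5535 ± 927 in KO E19 (n = 4), 4115 ± 991 in WT P5 (n = 3) and 1321 ± 366 in WT E19 lungs (n = 4). Its difference was -1.84 ± 0.29 (adjusted p = 0.00257), and it was called in every fit with 1 array left out. Sftpa1, the surfactant protein A gene, had signals of 11450, 10790 and 11000 in KO P5, 17980, 13490, 11170 and 11980 in KO E19, 9469, 10130 and 11660 in WT P5, and 7402, 7179, 6467 and 4746 in WT E19 lungs. KO E19 lungs had the highest mean but overlapped both P5 groups, and their highest signal was in replicate 1, the array with the high control ratio. Its difference was -0.98 ± 0.20 (adjusted p = 0.0299), a call lost in 12 of 28 alternatives. Sftpc and Sftpb, which encode surfactant proteins C and B, were not called: Sftpc had a difference of -0.04 ± 0.23, and Sftpb 0.19 ± 0.72 with its lowest KO E19 signal, 1108, in replicate 1. At an unadjusted limma p under 0.05, 9 of the 21 type 2 genes were lower. In the other direction 1 was higher, Etv5 (1.31 ± 0.40). Of all 13345 genes, 1554 had such a p in either direction. Chia1, the acidic chitinase, and Sgpp2, a sphingosine phosphate phosphatase, had differences of -1.44 ± 0.26 and -2.003 ± 0.29. The Chia1 call was lost without WT P5 replicate 3 (adjusted p = 0.058). Sgpp2 signal was 709.5, 657.7 and 678.7 in KO P5, 1135, 855.6, 533.9 and 704.5 in KO E19, 584.9, 619.2 and 847.3 in WT P5, and 202.8, 198.1, 209.3 and 102.7 in WT E19 lungs.

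The other genes with a lower difference were Acoxl, an acyl-CoA oxidase-like gene (-1.88 ± 0.27), the keratin Krt80 (-1.76 ± 0.29), the lectin Chodl (-1.64 ± 0.28), Dpt, a dermal matrix protein on the fibroblast list (-1.49 ± 0.28), Hdc, the enzyme that makes histamine (-1.48 ± 0.30), and Prnp, the prion protein gene (-1.05 ± 0.21), which was picked after its value was seen. Chodl was 154.6, 91.23 and 98.67 in KO P5 lungs, 207.7, 194.7, 189.1 and 170.5 in KO E19 lungs, 155.3, 183.4 and 242.6 in WT P5 lungs, and 112.7, 62.81, 85.77 and 73.74 in WT E19 lungs. Chodl thus differed from the main shape, since its KO P5 lungs lay below its KO E19 and WT P5 lungs. Another probe set of Hdc gave a difference of 0.31 ± 0.998, opposite in sign, while for 6 of 7 genes with another probe set the sign was the same. Ifit3, an interferon-induced antiviral gene, was 327.6, 316.5 and 401.6 in KO P5 lungs, 462.1, 1100, 507.1 and 563 in KO E19, 239.5, 255 and 580.2 in WT P5, and 163.2, 154.7, 99.93 and 155.3 in WT E19 lungs. Its KO E19 lungs exceeded all WT E19 lungs, and its difference was -1.88 ± 0.36 (adjusted p = 0.0165), lost without WT P5 replicate 3 (adjusted p = 0.088) and without KO P5 replicate 1 (adjusted p = 0.056). Of 33 interferon-stimulated genes 1 was called lower (0.135% of all genes were) and the median was -0.58. Ifit1, on the same list, had -1.89 ± 0.48 (adjusted p = 0.121).

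The promoters of Sftpa1, Cyp4b1 and Ifit3 are shown, since they carry searched motifs next to genes described above: 250 bases before the start from RefSeq, build GRCm38.p6, with the matches in capitals. The motifs were CTCAAG, the core bound by the lung factor NKX2-1, TGTTCT, a half-site of the glucocorticoid receptor, and 2 copies of GAAA with 2 bases between them, the core of interferon response elements, all read on both strands. Sftpa1 lies at chr14:41131538-41131787 on the plus strand, Cyp4b1 at chr4:115647722-115647971 on the minus strand and Ifit3 at chr19:34583279-34583528 on the plus strand.
Sftpa1: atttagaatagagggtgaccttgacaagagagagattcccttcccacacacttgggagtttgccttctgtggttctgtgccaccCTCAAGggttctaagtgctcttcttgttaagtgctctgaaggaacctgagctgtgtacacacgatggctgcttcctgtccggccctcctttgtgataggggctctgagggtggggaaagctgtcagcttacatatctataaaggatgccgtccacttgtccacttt
Cyp4b1: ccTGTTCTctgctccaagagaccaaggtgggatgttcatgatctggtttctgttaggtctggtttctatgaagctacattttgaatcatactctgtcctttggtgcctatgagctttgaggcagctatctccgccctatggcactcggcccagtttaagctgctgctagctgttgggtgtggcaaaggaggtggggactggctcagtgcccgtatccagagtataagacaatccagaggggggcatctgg
Ifit3: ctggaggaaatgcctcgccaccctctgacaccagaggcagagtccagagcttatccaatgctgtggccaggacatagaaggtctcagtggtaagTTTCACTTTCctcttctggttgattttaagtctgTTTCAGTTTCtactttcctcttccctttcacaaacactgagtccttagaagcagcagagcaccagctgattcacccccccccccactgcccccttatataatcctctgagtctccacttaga
Of the 18 called genes with a promoter entry, 3 (16.7%) held CTCAAG, against 13.3% of 32851 entries. TGTTCT was in 2 (11.1%), against 16.1%, and the interferon core in 1 (5.6%), against 3.0%. A called gene counted if any of its entries held the motif, while the background counted single entries. With 3, 2 and 1 genes, the shares show neither a difference from all promoters nor the lack of one.

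Of the 7 genes with a higher difference, Crh was the largest. It encodes corticotropin-releasing hormone, which starts the cascade that ends in adrenal glucocorticoid. Its signal was 42.88, 3.574 and 13.18 in KO P5 lungs, 68.31, 27.77, 23.34 and 19.35 in KO E19 lungs, 21.78, 11.01 and 11.3 in WT P5 lungs, and 568.1, 363.9, 414.4 and 236.7 in WT E19 lungs. Only WT E19 lungs exceeded 100.4, the median of all values, so the size of the change depends on the offset added before the logarithm. The difference was 2.89 ± 0.41 (adjusted p = 0.00066), and with all 3 low groups set to that median it was 1.68. With no offset Crh was not called (adjusted p = 0.377). Glucocorticoid targets had a median difference of -0.14 with none of 24 called (0.187% of all genes were).

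Cym, the milk-clotting protease chymosin, had signals of 37.6 to 111.5 in KO P5 and 26.37 to 49.09 in KO E19, against 102.4 to 188 in WT P5 and 338 to 443.3 in WT E19 lungs. Here KO E19 lungs were the lowest group, and the difference was 2.07 ± 0.38, a call lost without WT P5 replicate 3 (adjusted p = 0.058). With the KO E19 group, which lay under the median of all values, set to that median it was 1.04. Cdh16, a kidney cadherin, had signals of 297.4 to 469.7 in KO E19 lungs, against 955.3 to 1908 in WT E19 lungs, with a difference of 1.88 ± 0.37. Bnipl (1.67 ± 0.24), Plac1 (1.69 ± 0.37), Fastkd3, a mitochondrial RNA factor (0.96 ± 0.19), and Lsm7, a part of the LSM RNA-binding ring (1.32 ± 0.28), followed. Lsm7 was the gene whose KO change was itself called: it was higher at P5 by 0.87 ± 0.20. Plac1 and Lsm7 sat at the threshold and were lost in 15 and 16 of 28 alternatives. The next genes in this direction were not called, with adjusted p from 0.0565 to 0.0662: Foxp2, a forkhead factor of distal lung epithelium (1.17 ± 0.26), Arhgap19 (1.20 ± 0.26), Tafa4 (2.01 ± 0.45), Sema4g (1.76 ± 0.40) and Lmo1 (1.22 ± 0.28). Bnipl and Tafa4 each had 1 group under the median of all values, and with it set to that median their differences were 1.25 and 0.63.

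None of 34 mitosis genes was called for the difference (0.187% of all genes were), although all 34 had a positive value and 16 an unadjusted p under 0.05. Of all 13345 genes, 7389 had a positive value and 1554 an unadjusted p under 0.05 in either direction. The list median was 0.78 against 0.06 over all genes. With centring on array medians it was 0.61 against -0.11, and 5315 of all genes and 33 of the 34 mitosis genes were positive. Their level was 0.27, 1.004 and 1.03 in KO P5 lungs, -0.44, -0.39, 0.47 and 0.33 in KO E19 lungs, 1.18, 1.38 and 0.89 in WT P5 lungs, and 1.10, 1.33, 0.93 and 1.35 in WT E19 lungs. KO E19 lungs lay below every WT lung. At E19, 32 of 34 were called lower in KO (8.28% of all genes were), and the median gap was -1.19. At P5 none was called, and the median gap was -0.38, or -0.11 without KO P5 replicate 1. Birc5 (survivin), needed for chromosome segregation, had a difference of 1.34 ± 0.39 (adjusted p = 0.182). Without KO P5 replicate 1 the list median was 1.05. DNA replication genes had a median difference of 0.40, or 0.74 without that array, and 30 of 36 were called lower in KO at E19.

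Lists with a large median change across birth in WT lungs had E19 gaps of different sizes. Aerocyte genes had a median WT change of 0.94 and a KO minus WT gap of 0.49 at E19, and macrophage genes 0.78 and 0.39. With the liver level as a covariate, a level that itself largely followed genotype, these E19 gaps were 0.25 and 0.29. The median difference of birth changes was -0.65 for macrophage genes, against -0.56 for aerocyte genes. Of the 27 macrophage genes 24 were negative, and Car4 was called lower (0.135% of all genes were). HIF targets had a WT change of -1.05, with 17 of 24 called lower (6.23% of all genes were), and an E19 gap of 0.06. Their median difference was 0.34, or -0.05 without KO P5 replicate 1. Their level in KO E19 lungs, 0.45 to 1.12, overlapped 0.56 to 0.86 in WT E19 lungs. Lymphocyte receptor genes had a WT change of 0.91 and an E19 gap of -0.04. Their median difference was -0.41, with 13 of 16 negative, and -0.12 without KO P5 replicate 1. With centring on array medians the E19 gaps were 0.35 for HIF targets and 0.25 for lymphocyte genes, against 0.23 for all genes. Slc2a1, the glucose transporter among HIF targets, fell in both genotypes, by 1.70 in KO and 1.86 in WT, with a difference of 0.17 ± 0.42. The changes share arrays, so they stand side by side as a description.

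Over all genes 0.187% were called for the difference, so no call in a list of this size says little about it. Of the other lists, club and secretory genes had a median difference of -0.76 with none of 15 called, and Scgb1a1, the club cell secretoglobin, had -0.53 ± 0.20. Lipofibroblast genes had a median of -0.22 with Dpt called, collagen chains -0.20 with none of 18 called, and myofibroblast genes 0.07 with none of 23 called, a sign that turned with centring on array medians. Tip progenitor and fetal growth genes had 0.42 and surfactant lipid synthesis genes 0.20, with no call in either; without KO P5 replicate 1 these medians were 0.21 and -0.12. Glutathione and thioredoxin enzymes, the family of Gsr, had 0.20 with none of 38 called, and NRF2 targets -0.08 with none of 30 called. Oxidative phosphorylation genes had -0.30, p53 targets -0.27, immediate early genes -0.14, ciliated genes -0.04, neutrophil granule genes 0.03 and keratinised epithelium genes 0.12, and none of their members was called. The signs of the last pair also turned with centring. Such centring shifts every gene's difference alike, and it moved the median over all genes from 0.06 to -0.11. Without KO P5 replicate 1 the ciliated median was -0.26, the myofibroblast median 0.28, the immediate early median -0.07, the neutrophil median 0.01 and the keratinised median 0.07. Without WT E19 replicate 1 the neutrophil median was 0.32, the keratinised median -0.30, the myofibroblast median -0.14, the collagen median -0.34 and the ciliated median -0.13. Nqo1, the NRF2 target quinone reductase, had -0.44 ± 0.31 and Hmox1, heme oxygenase, 0.20 ± 0.41.

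Genes of other tissues were also measured, and none of those below was called for the difference (0.187% of all genes were). Liver plasma protein genes had a median difference of 0.92, which was 0.57 without KO P5 replicate 1, 2.45 without WT E19 replicate 1, and none of 24 was called. Erythroid precursor genes had 0.98 and none of 24 called, with 17 called lower in KO at E19 (8.28% of all genes were). Their median E19 gap was -1.24, or -0.34 with the liver level as a covariate. Heart and skeletal muscle genes had a median of -1.11, or -1.67 without WT E19 replicate 1, and none of 27 called: their level was 2.23 and 2.27 in KO E19 replicates 3 and 4, -0.53 and -0.61 in replicates 1 and 2, and 1.69 in WT E19 replicate 1. When the liver level was a covariate, 36 genes were called for the difference, 24 of them among the 25, while the E19 count went down to 96. In these 4 groups that level was at most 0.58 in KO lungs. It was at least 1.30 in WT lungs apart from WT E19 replicate 1. The covariate thus largely followed genotype, and in this fit the liver level and genotype cannot be told apart at E19. The part of these tissues in the E19 counts was not tested further.

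Each array was also placed on the axis between the WT E19 mean (0) and the WT P5 mean (1), over all tested genes. The WT arrays were placed on axes built without them. KO P5 arrays lay at 0.50, 1.05 and 1.16 and KO E19 arrays between 0.39 and 0.67. WT P5 arrays lay between 0.81 and 0.99, and WT E19 arrays at 0.66, 0.09, 0.04 and -0.12. The KO E19 arrays were above 3 of 4 WT E19 arrays, and WT E19 replicate 1, the one with a low liver level, lay among them. With the liver level, which largely followed genotype, removed, KO E19 arrays lay at 0.54, 0.13, 0.18 and 0.36, overlapping 0.04 to 0.22 in WT E19. The highest KO E19 position, 0.67 before and 0.54 after, was that of replicate 1, the array with the high control ratio. On this axis, which averages all genes, the E19 groups overlapped with and without the liver level.

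**Figure D4:**
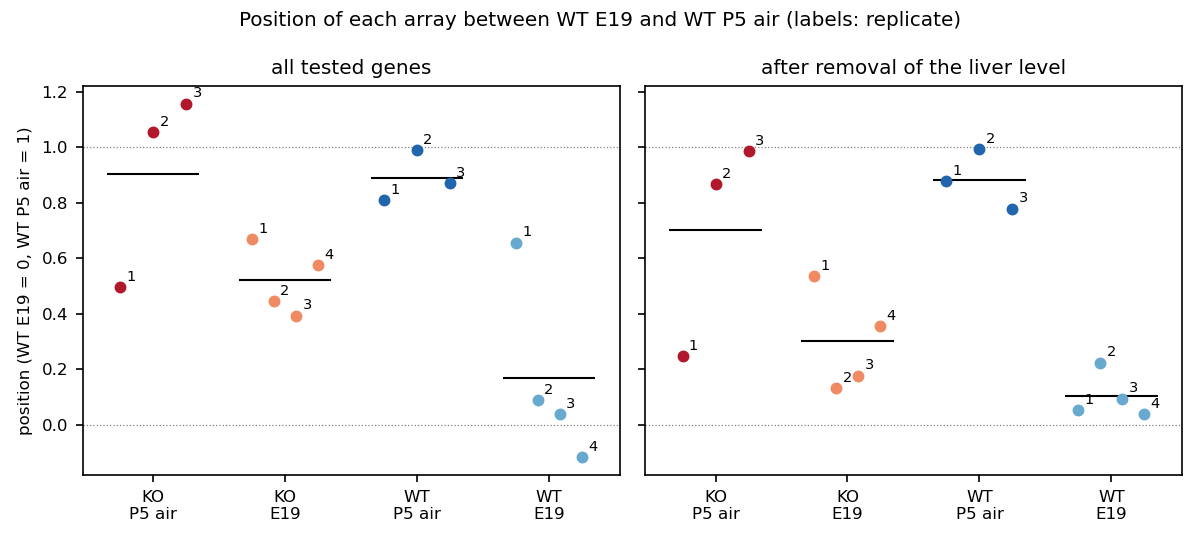
Position of each array on the axis from the WT E19 mean (0) to the WT P5 air mean (1), over all tested genes on the left and after removing the liver level on the right, with replicate numbers beside the points and a line at the group mean. KO P5 replicate 1 lies at 0.50 among the KO E19 arrays, and WT E19 replicate 1 lies at 0.05 with the liver level removed, against 0.66 before.

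In P5 air the 5 genes called between genotypes were Gsr, Saraf, Zdhhc2, Endod1 and Afp, the last 3 picked after their values were seen. Zdhhc2, a palmitoyl transferase on chromosome 8, had a KO minus WT gap of -1.68 at P5 and -1.12 at E19. Endod1, on chromosome 9, was 452, 402.9 and 785.8 in KO P5 and 1361, 1501 and 1222 in WT P5 lungs, a gap of -1.33 ± 0.25 with no overlap. Its E19 gap was -0.46 ± 0.21 (adjusted p = 0.149), and the difference of birth changes was not called (adjusted p = 0.309). Afp, the fetal liver protein, had a KO minus WT gap of -5.12 at P5 and -3.09 at E19, and it is 1 of the 24 liver genes above.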

How the data were processed

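Signals of 32 arrays, 4 groups of which enter the contrasts, are deposited by the authors as linear intensity values, made with MAS5 per the submitters' processing notes; no version or scan date is given in the sources used here. Of 45101 probe sets, 64 controls, 9160 without a symbol and 932 with several symbols were not tested. An offset of 26.3, the 25th percentile, was added before log2. Probe sets that exceeded 100.4, the overall median, on 3 or more arrays were kept, and each of 13345 genes took the one of highest mean signal. No further scaling was done: trimmed means, without the lowest and highest 2% of values, were 500.0 on every array, signal medians ran from 68.4 to 124.6 and the number of arrays limits precision.

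All 32 arrays entered 1 limma 3.58.1 fit in R 4.3.3, with 10 group means, 22 residual degrees of freedom and a trended variance prior. Each contrast was tested two-sided at 0.05 after Benjamini-Hochberg adjustment across the genes. The scripts were tested on simulated data. The members, gene lists and tests were chosen with earlier results of these data known. Genes were named by rule: Gsr and Saraf, the 12 highest and 12 lowest called differences without predicted or clone-named genes, and for each of 29 lists the first 2 measured members and up to 4 further called ones. Where fewer than 12 genes were called in a direction, the next smallest p filled the list, as values not called: Foxp2, Arhgap19, Tafa4, Sema4g and Lmo1. Alternatives were other filters, offsets, scalings, probe sets and arrays, a liver covariate, array weights and a replicate block.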

Additional observations from a re-analysis of the deposited data

Results flagged for a closer look

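All 25 called genes differ between genotypes in their change across birth by the tested contrast, and their differences (log2, KO change minus WT change) are given here as values. The lower ones were Rtkn2 -2.31, Sgpp2 -2.003, Chst1 -1.92, Acoxl -1.88, Ifit3 -1.88, Chil1 -1.84, Krt80 -1.76, Car4 -1.66, Chodl -1.64, Dpt -1.49, Hdc -1.48, Chia1 -1.44, Cyp4b1 -1.30, Lipg -1.26, Prnp -1.05, Epas1 -1.04, Sftpa1 -0.98 and Igfbp7 -0.94. The higher ones were Crh 2.89, Cym 2.07, Cdh16 1.88, Plac1 1.69, Bnipl 1.67, Lsm7 1.32 and Fastkd3 0.96.

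In 9 of 106 groups of 4 arrays, 1 array lay far from the other 3, and chance does this in about 1 in 20 groups by the criterion used. WT E19 replicate 4 was far below its group for Epas1 (4925), Hdc (196.2) and Sgpp2 (102.7), and for the type 2 (-0.65) and aerocyte (-1.38) list levels. WT E19 replicate 3 was low for Ifit3 (99.93). Among KO E19 lungs, replicate 3 was low for the type 1 level (-0.38), replicate 2 high for the ciliated level (0.32) and replicate 1 low for p53 targets (-0.43). The cause of these was not tested.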

How the results depend on the processing

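None of the 25 called genes changed the sign of its difference in the 28 alternatives. The count of 25 for the difference moved to 39 with quantile normalization (31 lower, 8 higher, against 18 and 7), to 16 with centring on array medians (13 and 3), to 1 in the 14 arrays alone and to 421 with array weights. Leaving out 1 array gave 12 (without WT P5 replicate 3) to 330 (without WT E19 replicate 1), with 16 without WT P5 replicate 2, 117 without KO E19 replicate 2 and 52 without KO E19 replicate 3. Without KO P5 replicate 1 and WT E19 replicate 1 together, a choice added after seeing the data, it was 315 (61 lower, 254 higher). For the KO change the count of 461 was 304 with quantile normalization, 263 with median centring, 0 in the 14 arrays alone, 2930 with array weights, 2147 without KO P5 replicate 1 and KO E19 replicate 1 and 1622 without KO P5 replicate 1 and WT E19 replicate 1. With 1 array left out it ran from 0 (without KO P5 replicate 2 or replicate 3) to 1567 (without KO P5 replicate 1), with 706, 754 and 717 without KO E19 replicates 1, 2 and 4. The WT change (1946) was 464 in the 14 arrays alone and 4740 with array weights, and 1031 (without WT P5 replicate 2) to 2706 (without KO E19 replicate 1) with 1 array left out, including 1251 without WT P5 replicate 1. The E19 count (2033) was 436 in the 14 arrays alone, 1294 with array weights and 96 with the liver covariate, and 1155 (without WT E19 replicate 4) to 2775 (without KO E19 replicate 2) with 1 array left out. The P5 count (5) was 3 with no filter, 3 with quantile normalization, 9 over every probe set, 1 in the 14 arrays alone, 1446 with array weights, 1 with the liver covariate and 51 without KO P5 replicate 1 and WT E19 replicate 1. With 1 array left out it ran from 2 (without KO P5 replicate 2, WT P5 replicate 2 or WT P5 replicate 3) to 58 (without WT E19 replicate 1).

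Replicate numbers did not pair the arrays: 1 of 13 same-numbered pairs correlated above 0.1 (range -0.235 to 0.121). With the replicate block, 30 genes were called for the difference, including all 25, and 3 in P5 air. With 3 or 4 arrays a group, and no detection calls, the fitted differences of dim genes such as Crh depend on the offset.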
